A study of Homo sapiens with 2 samples.

Results

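The first 5 Mb of the short arm of chromosome 19, the outer part of band 19p13.3, held 945 of the 33349 H4R3me2a peaks that the authors placed on chromosomes 1 to 22 and X. The peaks were chosen by position alone, as those on chromosome 19 with a summit at or below 5000000 (GRCh38), a rule that uses no pileup, fold or other value of a peak. The data come from HCT116, an established human colorectal carcinoma line grown without drug treatment. Chromatin was cross-linked, sheared and precipitated with an H4R3me2a antibody, and 1 such library was compared with 1 library of input DNA from the same line. There were no replicates. No difference below has a test against replicate spread, and the intervals, exact at 95%, cover counting error only. Expression was not measured, so the colon origin of the line was not checked here against marker genes.

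H4R3me2a is the asymmetric dimethylation of arginine 3 on the tail of histone H4. It is placed mainly by PRMT1, is bound by the Tudor protein TDRD3, and is generally associated with transcribed chromatin. Terminal 19p13.3 is a gene-dense, GC-rich stretch of short genes for kinases, G proteins, RNA-binding proteins and chromatin regulators. It also holds the fusion-prone transcription factor gene TCF3 and the tumour suppressor gene STK11.

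The sequences at the summits of 6 peaks are those of tall, enriched or wide peaks, not of typical ones. They are printed from the GRCh38 plus strand, 151 bases each, with CpG dinucleotides in capitals. The peaks in introns of PIP5K1C, MKNK2 and SBNO2 had the 3 highest pileups, those of GAMT and PLIN5 had among the highest folds, and that of STK11 was the widest.
PIP5K1C intron, chr19:3659235-3659385: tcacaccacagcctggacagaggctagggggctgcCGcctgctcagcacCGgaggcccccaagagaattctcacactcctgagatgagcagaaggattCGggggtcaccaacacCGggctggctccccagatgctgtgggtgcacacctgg
MKNK2 intron, chr19:2040196-2040346: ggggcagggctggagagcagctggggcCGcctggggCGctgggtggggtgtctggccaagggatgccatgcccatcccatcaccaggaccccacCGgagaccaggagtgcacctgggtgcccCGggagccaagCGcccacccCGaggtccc
SBNO2 intron, chr19:1157099-1157249: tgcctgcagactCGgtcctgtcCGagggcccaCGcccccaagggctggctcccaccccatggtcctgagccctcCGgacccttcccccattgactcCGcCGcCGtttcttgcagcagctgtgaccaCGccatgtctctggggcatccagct
GAMT promoter, chr19:1399673-1399823: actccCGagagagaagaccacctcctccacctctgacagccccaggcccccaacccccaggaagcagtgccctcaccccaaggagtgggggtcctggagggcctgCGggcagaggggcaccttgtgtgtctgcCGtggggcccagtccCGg
PLIN5 promoter, chr19:4524891-4525041: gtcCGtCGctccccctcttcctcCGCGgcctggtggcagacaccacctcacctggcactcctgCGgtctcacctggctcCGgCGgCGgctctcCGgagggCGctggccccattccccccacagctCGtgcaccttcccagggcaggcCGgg
STK11 promoter, chr19:1206938-1207088: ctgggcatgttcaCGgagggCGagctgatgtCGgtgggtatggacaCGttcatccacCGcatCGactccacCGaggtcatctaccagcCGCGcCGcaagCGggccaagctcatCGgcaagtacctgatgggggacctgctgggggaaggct
GC content of these 151 bases was 63.6% at PIP5K1C, 73.5% at MKNK2, 67.5% at SBNO2 and 69.5% at GAMT. It was 73.5% at PLIN5 and 63.6% at STK11. The stretches at PLIN5 and STK11 held 12 CpGs each, and those at PIP5K1C and GAMT held 4 each. The 151 bases at STK11 lie wholly in coding sequence, since the peak covers a coding exon next to an annotated internal start site. The summit at PLIN5 also lies in coding sequence, with 79 coding bases in its stretch, 10258 bp from the gene's 5' end. The stretch at GAMT held 31 coding bases. Promoter in these labels means within 1 kb of any annotated start site.

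Peaks were packed far more densely here than in the genome as a whole. There were 191 peaks per Mb of known sequence (179 to 204), against 11.1 per Mb on the rest of chromosomes 1 to 22 and X, a ratio of 17.2 (16.1 to 18.3). The region makes up 0.170% of the sequence and held 2.83% of the peaks (2.66 to 3.02%). Among the 576 complete windows of 5 Mb laid from the start of each chromosome, it ranked first by peaks per Mb and by GC content (55.6%). These ranks are a description only, since the region was chosen with earlier results known and its limits lie on that grid. Chromosome 19 beyond 5 Mb had 47.6 peaks per Mb, and its stretch from 45 to 50 Mb had 115. The last 5 Mb of chromosome 17, which do not fall on those windows, had 203 per Mb (191 to 216), an interval that overlaps that of 19p13.3. Neither DNA copy number in these cells nor the mappability of reads was analysed here, which limits what density, and the lack of peaks at the chromosome end, can show.

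The density was compared with that of sequence of equal GC content. If each 400-bp tile of the region had carried peaks at the rate of its GC content elsewhere in the genome, 459 peaks would have fallen here. The 945 observed were 2.06 times that number (1.93 to 2.19), and the region then stood at rank 7 of the 576 windows. The excess was present at each of the well-filled levels of GC. Sequence of 40 to 50% GC had 17.8 peaks per Mb in 19p13.3 and 3.61 outside it. At 50 to 60% GC the densities were 130 and 41.4 per Mb, at 60 to 70% they were 413 and 210, and at 70 to 80% they were 443 and 222.

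Each peak rested on few fragments, as elsewhere in the list. The pileup, the authors' number of fragments stacked at the summit, ran from 5 to 23 with a median of 11 (quartiles 9 and 13), against a median of 10 (quartiles 8 and 12) outside the region. A pileup of 10 or fewer was found at 43.9% of the peaks (40.7 to 47.2%) and at 59.97% of those outside. The local background that the caller had set against the pileup had a median of 1.63 fragments, against 1.54 outside, and its lowest level was reached by 1.59% of the peaks, against 8.54% outside. The fold enrichment, pileup plus 1 over background plus 1, had a median of 4.28 against 4.17. The width had a median of 207 bp against 184 bp. At a fold of at least 6 there were 47 peaks (4.97%, 3.68 to 6.56%), where the whole list had 3.51%. At a −log10 q of at least 5 there were 54 peaks (5.71%, 4.32 to 7.39%), where the whole list had 3.84%. Among the 945 peaks the median fold was 3.19 over backgrounds of 3 fragments or more and 4.70 over backgrounds below 1 fragment, so folds are not read here as an order of strength. The last 5 Mb of chromosome 17 had a higher pileup, with a median of 14, over a higher background of 2.66.

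The 10 windows of 500 kb differed widely in peak number. The window from 1.0 to 1.5 Mb was the richest with 189 peaks, or 20% of the region, followed by 0.5 to 1.0 Mb with 140. The windows from 1.5 to 2.0, 2.0 to 2.5 and 4.0 to 4.5 Mb had 102, 104 and 101 peaks, whose counting intervals overlap. The windows from 3.5 to 4.0, 4.5 to 5.0 and 3.0 to 3.5 Mb had 94, 81 and 68. The poorest were 2.5 to 3.0 Mb with 47 and the outermost window with 19, of which 60 kb are unknown sequence. Peak number followed GC content across the windows, from 49.0% in the outermost to 60.3% in the richest. Pearson's r was 0.93 and Spearman's rho 0.93 over the 10 windows, as a description only, since gene number (r 0.92) and the share of promoter sequence (r 0.95) varied along with it.

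**Figure D1:**
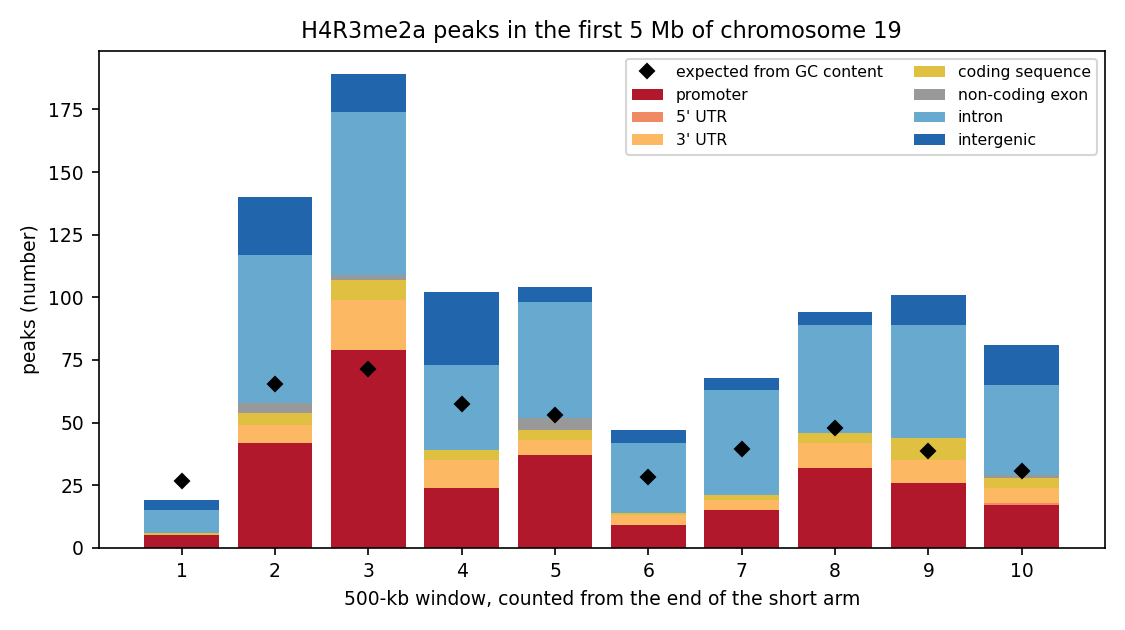
Number of H4R3me2a peaks in each 500-kb window of the first 5 Mb of chromosome 19, stacked by feature class, with diamonds for the number expected from GC content. The third window stands highest with 189 peaks against 71.2 expected, and the outermost window is the only one below its diamond, with 19 peaks against 26.5.

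Set against GC content the order changed. The window from 1.0 to 1.5 Mb had 2.65 times its expected number (2.29 to 3.06), and so, nearly, did the windows from 4.5 to 5.0 Mb (2.64, 2.10 to 3.28) and 4.0 to 4.5 Mb (2.60, 2.12 to 3.16). The window from 0.5 to 1.0 Mb had 2.15 times (1.81 to 2.53). The 5 windows between 1.5 and 4.0 Mb lay at 1.67 to 1.96 times, with intervals that overlap one another. The outermost window had 0.716 of its expected number (0.431 to 1.12), the only ratio under 1.

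Pileup varied little along the region. Its median was 9 fragments in the window from 2.5 to 3.0 Mb, 10 in the first and last windows, 12 at 2.0 to 2.5 Mb and 11 in the other 6. Median background ran from 1.17 fragments at 2.5 to 3.0 Mb to 2.03 at 2.0 to 2.5 Mb, the same windows as the ends of the pileup range. The highest pileups of the windows lay between 15 and 23. The windows thus differed in the number of called peaks much more than in their height. Only peaks that passed the caller's threshold are listed, which bounds height from below but not number.

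**Figure D2:**
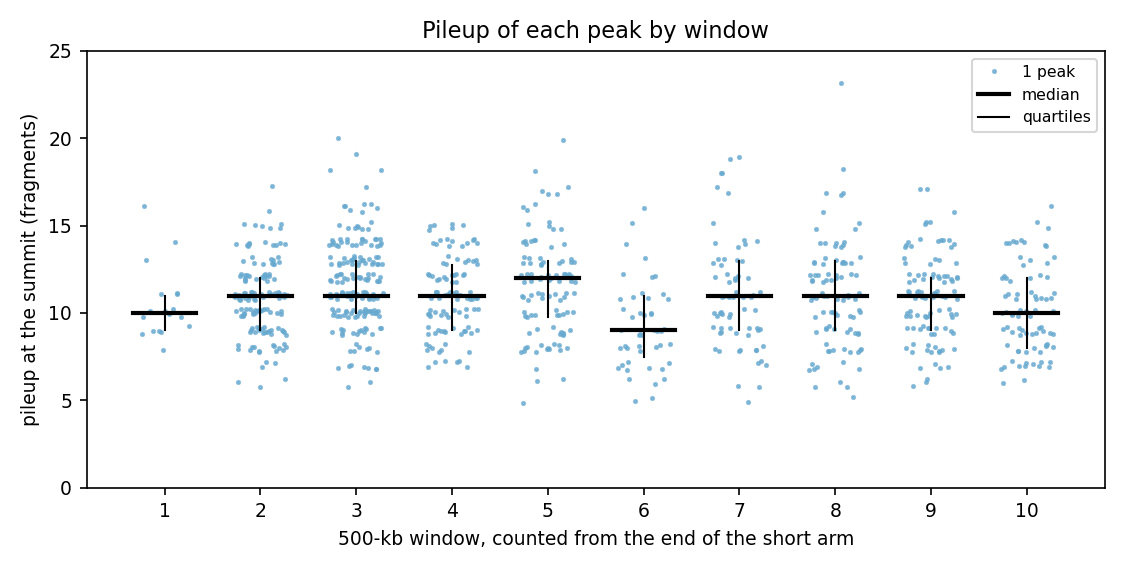
Pileup at the summit, in fragments, of each of the 945 peaks by 500-kb window, with thick bars for medians and thin lines for quartiles (points are spread sideways and slightly upwards or downwards for visibility). Medians lie between 9 and 12 in all windows, and the highest point, 23 fragments, is the intronic peak of PIP5K1C in the eighth window.

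Introns and promoters together held nearly 3 in 4 of the peaks. Each summit had received 1 class, with promoters, the sequence within 1 kb of any annotated transcription start of a protein-coding gene, taken first. Introns held 407 summits (43.1%, 39.9 to 46.3%) and promoters 286 (30.3%, 27.3 to 33.3%). Intergenic sequence held 120 (12.7%, 10.6 to 14.99%), 3' UTRs 77 (8.15%, 6.48 to 10.1%), coding sequence 42 (4.44%, 3.22 to 5.96%), non-coding exons 12 and 5' UTRs 1. Outside the region introns held 41.1%, promoters 30.3% and coding sequence 4.35%, all within the intervals above. The intergenic share was higher outside, at 17.2%, and the 3' UTR share was lower, at 4.51%, both beyond the intervals of 19p13.3. Of the 286 promoter summits, 53 also lay in coding sequence and 35 in a UTR, because many of the start sites are internal to genes.

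The promoter shares were alike, but the amounts of promoter sequence were not. It made up 19.8% of this region and 4.31% of the rest of the genome. Promoters therefore held 1.53 times their share by sequence in 19p13.3 and 7.04 times outside. For coding sequence the corresponding values were 2.01 and 7.23, and for 3' UTRs 1.78 and 3.004. Introns were at 0.885 and 0.775, and intergenic sequence at 0.557 and 0.441. The low promoter value was not particular to 19p13.3. It was 1.69 in the last 5 Mb of chromosome 17 and 1.89 at 45 to 50 Mb of chromosome 19. Counted by the 5' end of each gene alone, its outermost annotated base, 7.72% of the peaks (6.10 to 9.62%) lay within 1 kb. The share outside was 11.99% (11.6 to 12.3%).

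Peaks were denser here in every class than in the rest of the genome, by the widest margins in intergenic sequence and introns. Intergenic sequence had 106 peaks per Mb (88.3 to 127), against 4.92 per Mb outside, a ratio of 21.6 (17.9 to 25.9). Introns had 169 per Mb against 8.64, a ratio of 19.6 (17.7 to 21.6). The 3' UTRs had 341 per Mb against 33.5, a ratio of 10.2 (7.996 to 12.8), and coding sequence 384 against 80.6, a ratio of 4.76 (3.42 to 6.47). Promoters had 292 per Mb against 78.5, a ratio of 3.72 (3.30 to 4.18), whose interval does not overlap those of introns and intergenic sequence. With 1 peak, 5' UTRs had a ratio of 4.67 (0.117 to 26.8). Other peak-rich regions also had high densities. The last 5 Mb of chromosome 17 had 199 peaks per Mb in intergenic sequence, 145 in introns and 344 at promoters. At 45 to 50 Mb of chromosome 19 the densities were 41.4, 83.7 and 217 per Mb, and coding sequence had 407. A number expected from GC content was also set for each class, from outside tiles of equal GC content whatever their class. Its reference differs from that of the ratios above, so the change between them does not measure the effect of GC content. Observed over expected was 1.88 in intergenic sequence (1.56 to 2.26), 2.15 in introns (1.95 to 2.37) and 2.31 in 3' UTRs (1.80 to 2.92). It was 2.01 in coding sequence (1.47 to 2.69), 1.99 at promoters (1.77 to 2.24) and 1.47 in non-coding exons (0.734 to 2.63).

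**Figure D3:**
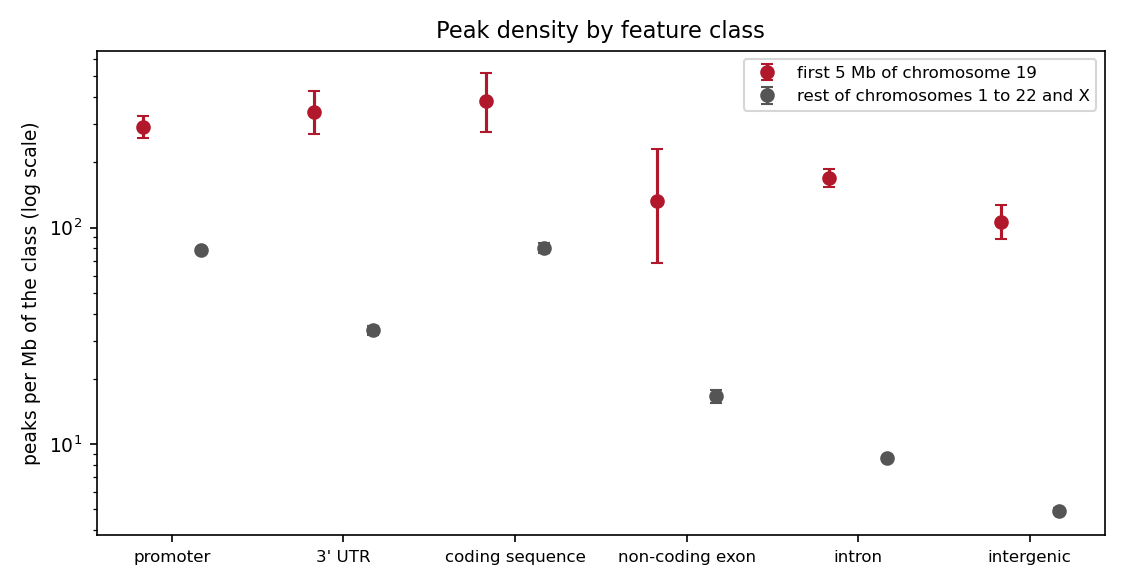
Peaks per Mb of each feature class (log scale) in the first 5 Mb of chromosome 19 and in the rest of chromosomes 1 to 22 and X, with 95% exact Poisson intervals that cover counting error only. The points of 19p13.3 lie above the others in all 6 classes drawn, by a ratio of 3.72 at promoters and 21.6 in intergenic sequence (5' UTRs, with 1 peak, are left out).

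The classes differed along the region. Promoters held 41.8% of the peaks at 1.0 to 1.5 Mb and 19.1% at 2.5 to 3.0 Mb. Introns held 61.8% at 3.0 to 3.5 Mb, where NFIC spans 155 kb, and 33.3% at 1.5 to 2.0 Mb. Intergenic peaks were most frequent at 1.5 to 2.0 Mb, with 29 of 102. Among intronic summits, 149 lay in the first intron of a canonical transcript and 232 in later introns, at 199 and 178 per Mb of such sequence. The GC contents of the introns themselves were 55.4% and 55.2%.

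Peaks also stood close together. The median gap between neighbouring peaks was 2302.5 bp, against 7956 bp outside, and 29.8% of the gaps were shorter than 1 kb, against 16.98%. Joined across gaps under 1 kb, the 945 peaks formed 664 groups, of which 479 were single peaks and 22 held 4 or more. The largest group lay in SBNO2, a transcriptional co-regulator gene of the strawberry notch family, with 9 peaks in 6.04 kb (1162502 to 1168544). Their pileups were 14, 13, 13, 11, 11, 16, 12, 14 and 12 fragments in order along the chromosome, so no member stood far above the others. The next largest lay in ABCA7, a lipid transporter gene linked to Alzheimer's disease, with 6 peaks in 3.40 kb (1052784 to 1056183). Its pileups were 12, 18, 14, 15, 16 and 17, and 5 of its summits fell within 1 kb of internal start sites. Groups of 5 peaks lay in SPPL2B, an intramembrane protease gene, ARHGAP45, TMEM259 and DAZAP1.

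Some stretches held no peak. The first peak lay at 304419 to 304558, which left 244 kb of known sequence at the chromosome end without one, over the olfactory receptor gene OR4F17 and up to PLPP2, a lipid phosphatase gene. GC content there was 42.9%, from which 6.21 peaks were expected. The stretches were picked because they held no peak, so the expected numbers are given as a description only. The longest gap between peaks ran for 119 kb, from 2842290 to 2961222, across the zinc finger genes ZNF555, ZNF556, ZNF57 and ZNF77. Its GC content was 47.2%, from which 2.63 peaks were expected. Other gaps lay from the 5' end of ZFR2 into ATCAY (52.7 kb), at FEM1A (46.5 kb), inside GNG7 (45.3 kb) and over the ends of SPPL2B and TMPRSS9 (45.3 kb).

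Most genes of the region held a called summit somewhere. A summit lay in the body of 143 of the 162 protein-coding genes that start here (88.3%, 82.3 to 92.8%), where 45.5% of all protein-coding genes had one. A promoter peak was found at 115 genes (71.0%, 63.3 to 77.8%), where 31.6% of all protein-coding genes had one, and 76 of the 115 had more than 1. Within 1 kb of the 5' end of the gene a peak was found at 70 genes (43.2%, 35.5 to 51.2%), where all protein-coding genes had 19.2%. Thus 45 genes had promoter peaks at internal start sites alone. The 5' end is the outermost annotated base of the gene, so a start site called internal here can be the canonical one. The genes were short, with a median length of 15.6 kb against 27.7 kb elsewhere, and had a median of 6 annotated start sites against 5. Promoter sequences of near neighbours overlap, so that 1 peak can count for more than 1 gene. The shares of genes were not adjusted for the density of peaks in the region.

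Around the canonical start sites of the 162 genes, summits lay on the transcribed side. From 100 to 600 bp downstream there were 38 summits, against 4 from 100 to 600 bp upstream, a ratio of 9.50 (3.42 to 36.6). The ratio at the 19808 other genes was 4.43 (4.02 to 4.88), which lies inside that wide interval. In bins of 100 bp the most, 13 summits, fell at 600 to 700 bp downstream. Only 2 fell in the bin just before the start.

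**Figure D4:**
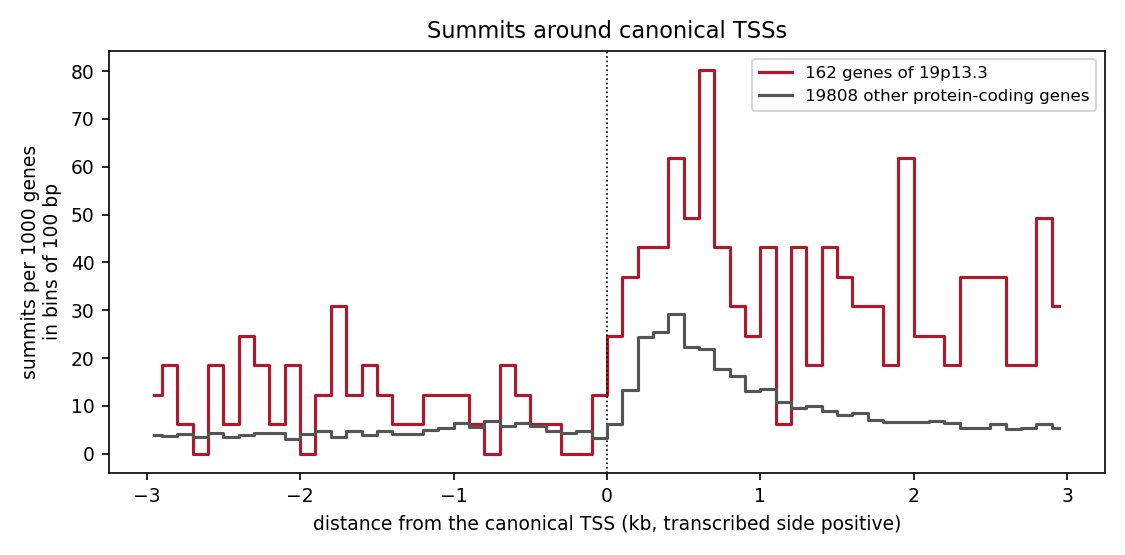
Summits per 1000 genes in 100-bp bins around the canonical start sites of the 162 genes of 19p13.3 and of 19808 other protein-coding genes, with the transcribed side positive. Both lines are higher on the transcribed side, and the line of 19p13.3, made of at most 13 summits a bin, stands above the other over most of it.

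The peak with the highest pileup lay in an intron of PIP5K1C, which codes for a kinase that makes the membrane lipid phosphatidylinositol bisphosphate at adhesions and synapses. It had 23 fragments over a background of 2.20 (3659106 to 3659401, fold 7.49). The next were intronic peaks of MKNK2, a kinase that acts on the translation initiation machinery (20 fragments, 2040026 to 2040603, fold 5.85), and of SBNO2 (20 fragments, 1157047 to 1157276, fold 5.16). Peaks of 19 fragments lay 5 bp from an internal start site of TLE5, a short Groucho-family corepressor (3057272 to 3057871, fold 6.56), and in an intron of FAM174C (1278544 to 1279186, fold 6.001). A peak in the 3' UTR class at NCLN (3209049 to 3209341, fold 5.78) also had 19. Of these 6 peaks, 4 were intronic, 1 was at a promoter and 1 was in a 3' UTR.

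The highest fold was 7.83, at GAMT, the methyltransferase that completes creatine synthesis, where 18 fragments stood over a background of 1.43 (1399651 to 1399902). The summit lay 1 bp from an annotated internal start site and 1822 bp from the gene's 5' end. It was followed by an intronic peak of MFSD12, a gene for a lysosomal and melanosomal transporter (3555950 to 3556276, fold 7.61, 15 fragments), and by the PIP5K1C peak above. A peak 883 bp from an internal start site of PLIN5, a lipid droplet protein, had a fold of 7.30 from 14 fragments (4524819 to 4525107). Its summit lay in coding sequence, 10258 bp from the gene's 5' end. One in the 3' UTR class at GIPC3, a gene needed for hearing, had 7.15 from 13 fragments (3592609 to 3592915). The high folds at MFSD12, PLIN5 and GIPC3 came with backgrounds of 1.10, 1.06 and 0.959 fragments, below the regional median.

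The widest peak, 1470 bp, covered the coding exon and internal start site of STK11, the LKB1 kinase gene (1206912 to 1208381). Its pileup was 13 fragments and its fold 4.59, close to the regional medians, so the widest peak was not a tall one. The others were in an intron of SBNO2 (956 bp, 1117078 to 1118033), at the promoter of PRSS57, a neutrophil serine protease (891 bp, 694943 to 695833), near an internal start site of UBXN6, a cofactor of the p97 unfoldase (876 bp, 4445991 to 4446866), and at the promoter of GIPC3 (863 bp, 3585271 to 3586133). In all, 52 peaks (5.50%, 4.14 to 7.15%) were 500 bp or wider, against 3.47% outside, and 16 of them lay at 1.0 to 1.5 Mb.

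Counted by summits in the gene body, SBNO2 led with 33 in 66.6 kb, 24 of them intronic and 9 at promoters, with pileups of 8 to 20. An unnamed protein-coding model of 71.6 kb that overlaps LINGO3 and SPPL2B held 26. NFIC, a nuclear factor I transcription factor gene, and GNG7, a G protein gamma subunit gene, had 24 each, but over 155 and 191 kb. PIP5K1C had 20, DAZAP1, an RNA-binding protein gene, 16, PALM, the paralemmin gene, 15, and ABCA7 14. Per 10 kb the order was different, with 5.69 summits in DAZAP1, 5.47 in ABCA7 and 4.95 in SBNO2, against 1.55 in NFIC and 1.25 in GNG7. GC content was 58.7%, 60.5% and 63.2% in the first 3 of these, and 55.1% and 52.2% in NFIC and GNG7. The order by density was not that by GC content throughout, as PIP5K1C had 2.85 summits per 10 kb at 60.6% GC and PALM 3.81 at 59.7%.

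The genes with the tallest promoter peak and with the most body summits are given for each window. In the outermost window the promoter leader was THEG, a testis gene, with 10 fragments, and MADCAM1, the mucosal addressin, had the most summits in its body, 5. At 0.5 to 1.0 Mb it was WDR18 (16 fragments), with PALM leading by body. At 1.0 to 1.5 Mb GAMT and ABCA7 tied at promoters with 18 fragments, and SBNO2 led by body. At 1.5 to 2.0 Mb CSNK1G2, a casein kinase gene, ABHD17A and REXO1 tied with 14 fragments, and REXO1 also led by body with 11 summits. SPPL2B had 18 fragments at 2.0 to 2.5 Mb and THOP1, a peptidase, 15 at 2.5 to 3.0 Mb, where GNG7 led by body. TLE5 and NFIC led at 3.0 to 3.5 Mb, and CACTIN (18 fragments) and PIP5K1C at 3.5 to 4.0 Mb. UBXN6 (17 fragments) and PIAS4, a SUMO ligase with 14 body summits, led at 4.0 to 4.5 Mb. At 4.5 to 5.0 Mb PLIN5, TNFAIP8L1 and SEMA6B, a semaphorin gene, tied with 14 fragments, and SEMA6B also had the most body summits, 13.

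All 12 genes listed for RNA binding, splicing and translation had a promoter peak (interval of the share 73.5 to 100%), where the 162 genes of the region had 71.0%. The 12 are part of those 162, and the list was chosen with earlier results known. It leaves out the splicing gene YJU2, which had no promoter peak but 5 summits in its body. The share is thus that of the listed genes, not of all such genes. Annotated start sites of the 12 ran from 2 at MEX3D to 36 at CIRBP, against a regional median of 6, and were not taken into account. The highest pileups were 18 fragments at CACTIN, a splicing-associated protein (fold 4.41), 17 at NCLN, a nicalin gene of the membrane protein biogenesis machinery (3.93), 17 at SF3A2, a subunit of the U2 particle of the spliceosome (4.42), and 16 at LSM7, of the ring that binds U6 RNA (5.31). DAZAP1 had 14, the elongation factor gene EEF2 13, the splicing repressor gene PTBP1 12, CIRBP and CELF5 11 each, MEX3D and ZFR2 10 each, and the ribosomal protein gene RPS15 9. A peak within 1 kb of the 5' end was present at 6 of the 12, where 43.2% of the region's genes and 19.2% of all protein-coding genes had one. The other 6 had theirs at internal start sites alone. At EEF2, for example, the summit lay 3868 bp from the gene's start.

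Of 13 genes for chromatin proteins, corepressors and RNA polymerase, 11 had a promoter peak (84.6%, 54.6 to 98.1%). The share was 71.0% for the region's genes and 31.6% for all protein-coding genes. TLE5 had 19 fragments, POLR2E, an RNA polymerase subunit, 16 (fold 5.58), REXO1 14 (4.50) and TLE2, a Groucho corepressor, 13 (4.59). PIAS4 also had 13, the H3K79 methyltransferase gene DOT1L 12, MBD3 of the NuRD complex 11, CHAF1A of the histone chaperone CAF-1 10, TLE6 9, and HMG20B and the histone demethylase gene KDM4B 8 each. The DOT1L summit lay 58129 bp from the 5' end, and the gene had 12 summits in its body. UHRF1, the reader of hemimethylated DNA, and SIRT6, a deacetylase, had no promoter peak but 8 and 1 summits in their bodies. KDM4B runs past 5 Mb, and only its part in the region is described.

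Transcription factors outside the ZNF series had promoter peaks at 6 of 9 genes (66.7%, 29.9 to 92.5%). The share was 71.0% for the region's genes and 31.6% for all protein-coding genes. SBNO2, a co-regulator listed with them, had 13 fragments, ARID3A 12 (fold 5.33), TCF3, the E2A gene, 12 (4.96), NFIC 11 (5.08), KLF16 10 and ZBTB7A 7. ONECUT3 had no promoter peak but 6 summits in its body, CREB3L3 had 2 in its body, and RAX2, a retinal factor, had none at all. Of the 5 ZNF genes 1 had a promoter peak (20%, 0.505 to 71.6%), ZNF555 with 8 fragments, and ZNF554, ZNF556, ZNF57 and ZNF77 had no summit anywhere. The interval of 5 genes is too wide to set them apart from the other genes of the region.

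Among kinases, 6 of 7 had a promoter peak (85.7%, 42.1 to 99.6%), where the region's genes had 71.0% and all protein-coding genes 31.6%. MKNK2 had 16 fragments (fold 6.44), CSNK1G2 and PIP5K1C 14 each (5.46 and 6.01), STK11 13, MAP2K2, the MEK2 kinase of the MAPK cascade, 12 (5.22) and DAPK3 10. The summits at MAP2K2 and PIP5K1C lay 664 and 719 bp into the gene. That at STK11 lay 29455 bp from the gene's outermost annotated 5' end, which need not be its main start site. MATK, a kinase mainly of blood cells and brain, had no summit in its promoters or body.

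G protein and receptor genes had promoter peaks at 5 of 7 (71.4%, 29.04 to 96.3%), against 71.0% of the region's genes and 31.6% of all protein-coding genes. GNA11, the alpha subunit gene mutated in uveal melanoma, had 18 fragments with its summit 516 bp into the gene (3 promoter peaks, fold 6.23). The thromboxane receptor gene TBXA2R had 12, and KISS1R, GNG7 and DIRAS1 had 9 each. GNA15 had 2 body summits, and S1PR4, a lymphocyte receptor, had none.

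Of 8 genes listed as mitochondrial and redox enzymes 3 had a promoter peak (37.5%, 8.52 to 75.5%), an interval that includes the regional 71.0%. They were GAMT with 18 fragments, GPX4, the lipid peroxide reductase that guards against ferroptosis, with 13 (fold 5.52), and NMRK2 with 9. The list is mixed, as GAMT acts in creatine synthesis, and it leaves out POLRMT, which had 3 promoter peaks. Its share is thus not that of mitochondrial genes. The 5 members without a promoter peak follow. NDUFS7 of complex I had 3 body summits and UQCR11 of complex III had 1. ATP5F1D of the ATP synthase, TIMM13 of the inner membrane import machinery and MRPL54 of the mitochondrial ribosome had none.

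Genes of the neutrophil granule and complement lie in a tight row. Of the 4 listed, 2 had a promoter peak (50%, 6.76 to 93.2%), PRTN3 with 9 fragments and ELANE with 8. The share was 71.0% for the region's genes and 31.6% for all protein-coding genes, here and for the 2 lists that follow. AZU1 and CFD had 1 body summit each. The list leaves out the neutrophil serine protease gene PRSS57, which had a promoter peak of 13 fragments. Of 6 neuronal genes 4 had a promoter peak (66.7%, 22.3 to 95.7%). It had 16 fragments at APC2, 15 at SHD, 14 at the NMDA receptor subunit gene GRIN3B and 13 at LINGO3. HCN2, a pacemaker channel gene, had 6 summits in its body alone and ATCAY had 1. All 3 perilipins had a promoter peak (29.2 to 100%), with 14 fragments at PLIN5, 12 at PLIN3 and 11 at PLIN4. The PLIN5 summit lay in coding sequence, 10258 bp from the gene's 5' end.

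All 7 genes listed as junction and cytoskeleton had a promoter peak (59.0 to 100%), where the region's genes had 71.0% and all protein-coding genes 31.6%. The list is mixed, as SEMA6B is a semaphorin gene and AP3D1 a vesicle adaptor gene. Its share is thus not that of junction and cytoskeleton genes. Pileups were 15 fragments at PALM (fold 7.03), 14 at SEMA6B and AP3D1 and 12 at CNN2 and SH3GL1. The lamin gene LMNB2 had 11 and TJP3, a tight junction gene, 8. Of 6 ubiquitin and proteolysis genes 5 had a promoter peak (83.3%, 35.9 to 99.6%), an interval that includes the regional 71.0%. UBXN6 had 17 fragments, THOP1 15 and DPP9, a dipeptidyl peptidase, 13. FZR1, an activator of the anaphase-promoting complex, had 12, and CDC34, a ubiquitin-conjugating enzyme, 11. FEM1A had 1 body summit alone.

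**Figure D5:**
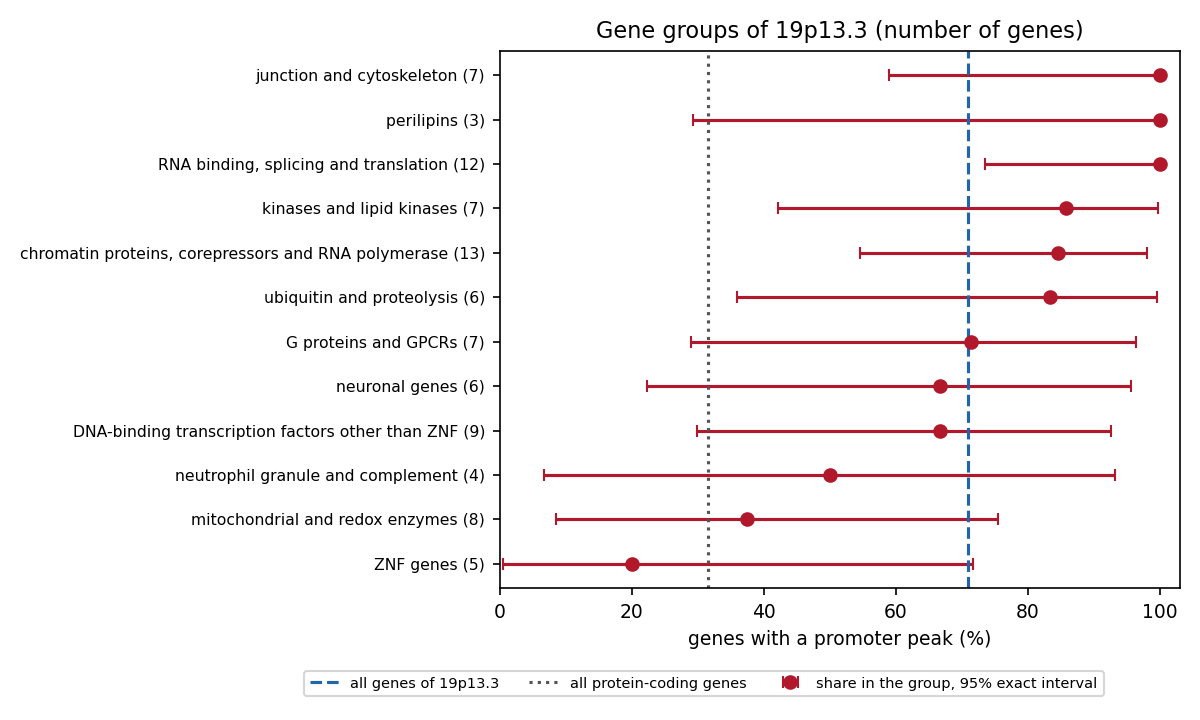
Share of genes with a promoter peak in 12 groups of genes from 19p13.3, with 95% exact intervals that cover counting error only, and lines for all 162 genes of the region (71.0%) and all protein-coding genes (31.6%). The interval of the RNA-binding group, 73.5 to 100%, lies wholly above the regional line, and the intervals of the other 11 groups include it. The RNA-binding group leaves out YJU2, which had no promoter peak, so its place depends on the genes listed.

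The sequence under the peaks was richer in GC and CpG than that under peaks elsewhere. In the 301 bases around each summit GC content had a median of 63.8% (quartiles 59.1 and 66.8%), against 60.1% (54.8 and 64.5%) at the other peaks, and the median number of CpGs was 11 against 7. Windows of the same length in 19p13.3 that touched no peak had a median GC content of 54.2%. The GC box, GGGCGG on either strand, was found around 36.4% of the summits (33.3 to 39.6%), 24.8% of those elsewhere, 21.6% of the 14709 peak-free windows and 44.95% of 35116 RefSeq promoter sequences of 300 bases. At a GC content of 55 to 65% the share was 27.0% of 459 peak windows and 26.2% of 4733 peak-free windows.

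The CCAAT motif, on either strand, was found around 17.8% of the summits (15.4 to 20.4%), against 20.9% at other peaks, 21.0% of peak-free windows and 34.6% of RefSeq promoters. At 55 to 65% GC it was in 19.2% of peak windows and 19.1% of peak-free windows. The E-box CACCTG, on either strand, was found at 46.2% (43.0 to 49.5%), against 41.0% at other peaks, 42.0% of peak-free windows and 20.6% of RefSeq promoters. At 55 to 65% GC the shares were 47.7% of peak windows and 43.7% of peak-free windows. The E-box CACGTG was found at 6.56% (5.07 to 8.33%), against 5.93% at other peaks and 6.59% of peak-free windows. At 55 to 65% GC it went the other way from CACCTG, with 5.66% of peak windows and 8.09% of peak-free windows. The motif TGACGTCA was found around 1 summit. Short internal repeats, counted where 20% or more of the 12-base words of a window occurred again within it, were present at 26 summits (2.75%, 1.80 to 4.01%). They were present at 2.01% of the other peaks and at 4.86% of the peak-free windows. The 26 peaks with such repeats had a median pileup of 11 and a median fold of 4.76, and 23.1% of them had a −log10 q of at least 5. The 919 without had a median pileup of 11 and a median fold of 4.26, and 5.22% reached that q.

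The limit of 5 Mb falls inside KDM4B. The last peaks inside it, at 4989935 to 4990107 and 4997485 to 4997941, had 7 and 9 fragments. The first beyond it, at 5012433 to 5012560 and 5012728 to 5012874, had 8 and 10, and all 4 were intronic.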

How the data were processed

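One H4R3me2a library was compared with 1 input library of HCT116 cells, per the labels. The submitters' processing notes name Bowtie2, MACS2, deepTools and GRCh38. Versions, parameters, read filters and library sizes were not in the sources used here, so depth is read from the pileup alone.

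The deposited table gives each peak's coordinates, its pileup (a signal in whole fragments, not normalized), fold enrichment (a ratio, per the file headers) and the −log10 of p and q, all from the authors' caller. They were used to describe and filter peaks only. The background was recovered as (pileup + 1) / fold − 1, and checked by recomputing the −log10 p from a Poisson distribution.

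Summits were classed with GENCODE release 44 by the first that applied of promoter, UTR (5' before 3'), coding sequence, non-coding exon, intron and intergenic. Expected numbers summed, over 400-bp tiles, the peak rate of their GC bin (2% wide) outside the region, and this step was checked on simulated data. Sequences came from GRCh38, and promoter sequences for the motif shares from RefSeq (GRCh38.p14). Python 3.11.15 and SciPy 1.17.1 were used. No p-value was computed, since peaks and genes of 1 library are not replicates.

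The region, gene lists and tests were chosen with earlier results of these data known. The genes named are those at the 5 highest-pileup, highest-fold and widest peaks, the first of each window by promoter pileup and by body summits, the 8 with most body summits, and all list members, with values for the first 4 of a list by promoter pileup. The further list values, the genes named as left out of lists, and the genes named at gaps, groups of peaks and the limit were chosen after their values were seen.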

Additional observations from a re-analysis of the deposited data

How the results depend on the processing

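The 945 peaks became 664 when those less than 1 kb apart were merged, 596 at a fold of 4 or more, 546 in the upper 50% by −log10 q and 54 at a −log10 q of 5 or more. The region's share of all peaks, 2.83%, was then 2.41%, 3.03%, 3.27% and 4.22%. The promoter share, 30.3%, was 18.7% with a window of 500 bp, 57.1% with 3 kb and 7.72% with gene 5' ends alone, and outside the region 19.8%, 48.8% and 11.99%. The share of genes with a promoter peak, 71.0%, was 87.0% with a window of 3 kb, 43.2% with 5' ends alone, 61.1% at a fold of 4 and 9.26% at a −log10 q of 5. The ratio to the GC-based number, 2.06, was 1.89 with tiles of 1 kb, 1.84 with merged peaks and 2.35 at a −log10 q of 5, above 1 in all. The window at 1.0 to 1.5 Mb, with 20% of the peaks, held 25.9% at a −log10 q of 5, where the median pileup was 15 instead of 11. The other 14 alternative values stayed within the counting interval, or for numbers of peaks within 1.5 times, of the value reported. Stricter thresholds and merging leave fewer peaks by construction, and the cause of the other changes was not tested. No paired analysis was possible because each group has 1 library. With a median of 11 fragments a peak, absence of a peak does not show absence of the mark.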
